A study of Mus musculus with 50 samples.

Results

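The regions described here are 282 of the 144465 merged ATAC-seq peaks of the series, those lying within 20 kb of a protein-coding olfactory or vomeronasal receptor gene. Members were chosen among the merged peaks by position alone, from the RefSeq annotation of GRCm38.p6. A merged peak itself needed a called peak in at least 3 of 5 libraries of a group, so reads shaped the list. Of the 282, 39 were found in 1 group only, and an RF call at these follows in part from that filter. The annotation holds 1463 such receptor genes. ATAC-seq, which counts transposase insertions into accessible DNA, was run on neuronal (NeuN-positive) nuclei of the ventral hippocampus, taken by sorting from male C57BL/6JRj mice of 1 genotype. Pregnant females from a single breeder were sent to 5 rearing facilities (RF1 to RF5), where the offspring were born and raised. Mice of TP1 were 8 weeks old and were killed in the RF itself. Mice of TP2 were test-naïve littermates killed at 14 weeks after moving to a common test laboratory. Each of the 10 groups of RF and TP held 5 libraries, each from 1 mouse, and every brain was frozen in hexane before dissection. The libraries of each TP were amplified and sequenced as 1 batch, so age, housing and batch cannot be told apart between TPs, and comparisons between RFs were made within a TP.

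Olfactory receptors (ORs) are G protein-coupled receptors of the nose, and each olfactory sensory neuron expresses a single OR allele while the rest of the repertoire is kept in heterochromatin. Class I ORs, the fish-like family, sit mainly in a single cluster on mouse chromosome 7, and the larger class II is spread over many clusters. The vomeronasal receptors V1R and V2R detect pheromones and are expressed in the vomeronasal organ. None of these families is known for a role in hippocampal neurons, so their clusters are long stretches of tissue-specific genes that are usually silent in brain.

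Libraries of TP1 held 33663505 to 77396321 counts, with a median of 44453692, and those of TP2 held 5111223 to 36401717, with a median of 26030443. Over all merged peaks, the library most like each TP1 library, by correlation of log2 CPM (counts per 1000000 counts in merged peaks), came from the same RF for 25 of 25 libraries. At TP2 this held for 22 of 25, the exceptions being RF1 replicates 3 and 5 and RF2 replicate 5. Over receptor-cluster peaks the numbers were 25 of 25 at TP1 and 20 of 25 at TP2, where RF3 replicates 2 and 4 were further exceptions. Over the 230 receptor-cluster peaks away from other gene ends they were 23 of 25 at TP1 and 17 of 25 at TP2. Of 100 pairs of libraries of 1 group, 20 differed by no more than sampling noise. At TP2, 7 pairs from different RFs did too, each with RF1 replicate 3 or 5 or RF2 replicate 5. RF1 replicate 3 was the library with 5111223 counts, and a library of few counts stays within sampling noise more easily. Libraries of 1 group in which every pair differed by no more than sampling noise were counted as 1 sample in means and SDs. All 8 neuron markers looked up, among them Rbfox3, which encodes NeuN, had a peak at a gene end. So did 7 of 9 glia and vessel markers, 2 of 4 markers of olfactory and vomeronasal sensory neurons, and 77.7% of protein-coding genes other than receptors. The highest such peak per gene had 2.29 (Gad2) to 25.6 (Camk2a) CPM per kb in neuron markers. In glia and vessel markers with a peak it had 1.86 (Pdgfra) to 7.67 (Gfap), and in sensory neuron markers 2.25 (Cnga2) and 4.47 (Omp).

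Few receptor promoters lay under a merged peak. RefSeq promoter windows, 250 bases before to 50 bases after an annotated start, overlapped a merged peak for 11 receptor genes. The windows below are shown because they are the receptor promoters that carry accessible chromatin here. They are the 2 under the highest peaks, Vmn2r29 on the minus strand at chr7:7278240-7278539 and Olfr1414 on the minus strand at chr1:92518466-92518765, and 3 of the 5 that held a searched motif. The 3 are Olfr1392 on the plus strand at chr11:49293047-49293346, Olfr520 on the plus strand at chr7:99734895-99735194 and Olfr71 on the minus strand at chr4:43706517-43706816. Capitals mark matches on either strand to the homeodomain core TAATTA, the AP-1 site TGANTCA or the E-box CAGATG, and no marked match overlaps another.
Vmn2r29: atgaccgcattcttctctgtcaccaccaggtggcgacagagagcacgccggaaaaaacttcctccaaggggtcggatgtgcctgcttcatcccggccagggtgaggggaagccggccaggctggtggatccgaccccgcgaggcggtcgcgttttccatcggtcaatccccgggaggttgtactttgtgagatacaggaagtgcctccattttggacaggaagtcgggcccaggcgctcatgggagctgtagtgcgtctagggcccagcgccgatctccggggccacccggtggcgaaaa
Olfr1414: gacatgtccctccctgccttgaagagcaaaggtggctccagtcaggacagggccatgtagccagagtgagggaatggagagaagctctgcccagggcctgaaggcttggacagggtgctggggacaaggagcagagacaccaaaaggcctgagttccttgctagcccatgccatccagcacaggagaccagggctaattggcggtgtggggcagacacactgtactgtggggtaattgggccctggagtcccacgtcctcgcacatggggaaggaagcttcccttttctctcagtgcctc
Olfr1392: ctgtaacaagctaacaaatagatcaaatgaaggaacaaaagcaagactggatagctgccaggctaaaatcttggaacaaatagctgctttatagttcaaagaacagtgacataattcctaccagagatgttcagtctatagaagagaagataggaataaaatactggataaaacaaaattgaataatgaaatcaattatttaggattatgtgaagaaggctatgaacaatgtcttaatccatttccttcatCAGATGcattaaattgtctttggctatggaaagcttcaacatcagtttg
Olfr520: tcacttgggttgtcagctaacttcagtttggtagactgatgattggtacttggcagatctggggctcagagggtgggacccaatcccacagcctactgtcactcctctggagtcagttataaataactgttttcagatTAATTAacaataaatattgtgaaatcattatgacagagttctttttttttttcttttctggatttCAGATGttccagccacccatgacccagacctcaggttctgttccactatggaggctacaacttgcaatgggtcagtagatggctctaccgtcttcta
Olfr71: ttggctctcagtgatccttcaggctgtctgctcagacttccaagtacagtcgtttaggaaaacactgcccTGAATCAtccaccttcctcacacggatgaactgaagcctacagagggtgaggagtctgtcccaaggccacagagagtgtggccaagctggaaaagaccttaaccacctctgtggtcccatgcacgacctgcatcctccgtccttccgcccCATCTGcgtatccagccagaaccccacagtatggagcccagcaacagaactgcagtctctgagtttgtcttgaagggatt

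The Ebf motif, named for factors that olfactory sensory neurons use, was in 0 of the 11 windows, in 5 of 1259 other receptor windows (0.397%) and in 0.904% of all 32851 promoter windows. TAATTA was in 1 of the 11 windows, 210 of the other receptor windows (16.7%) and 5.29% of all windows. TGANTCA was in 1 of the 11, 201 of the others (15.97%) and 7.81% of all. CAGATG was in 5 of the 11, 291 of the others (23.1%) and 17.2% of all. The median GC content was 42.7% in the windows under a peak, 35.7% in other receptor windows and 52.7% in all windows. The windows of Vmn2r29 and Olfr1414, at 62.3% and 59.0% GC, were the richest of the 11.

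Few receptor genes had a merged peak close by. The authors kept only unique alignments, so reads that fit several receptor genes equally well were lost. How far this lowered the number of peaks was not tested. Gene length, which widens the 20 kb window, was not matched between receptor and other genes. A merged peak lay within 20 kb of 247 of 1463 receptor genes (16.9%), against 18078 of 20424 other protein-coding genes (88.5%). Within 2 kb of the start site, the shares were 34 of 1265 receptor genes (2.69%) and 12053 of 16227 other genes (74.3%). Among families, class II ORs had a peak within 20 kb for 197 of 960 genes (20.5%), class I ORs for 13 of 124 (10.5%), V2Rs for 14 of 123 (11.4%) and V1Rs for 20 of 230 (8.70%). The 42.03 Mb of receptor genes with their 20 kb flanks held 6.71 peaks per Mb, which covered 0.881% of bases. The same window around other genes held 78.6 peaks per Mb and 13.6% of bases in peaks.

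**Figure D1:**
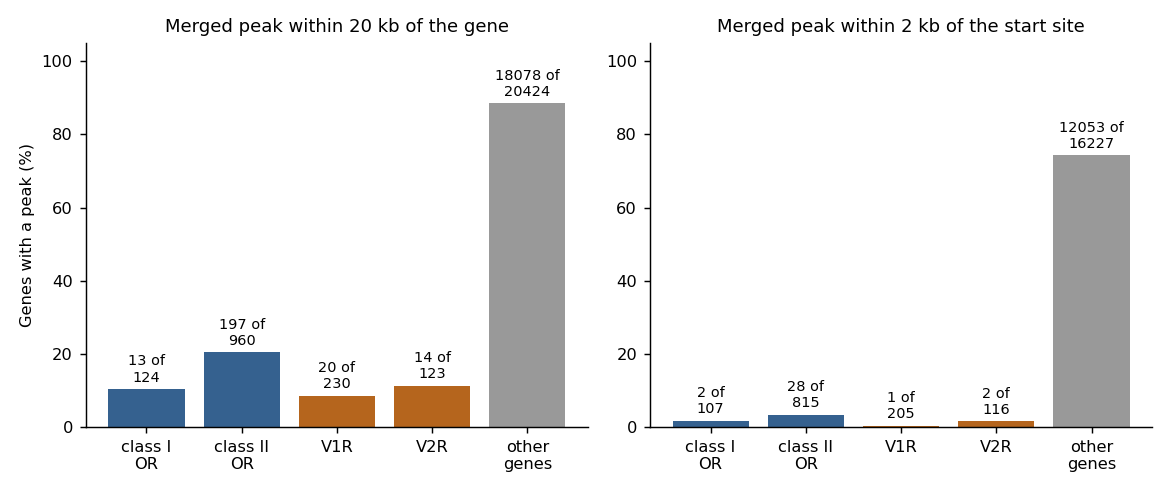
Share of genes (%) with a merged peak within 20 kb of the gene (left) or within 2 kb of an annotated start (right), for the 4 receptor families and for other protein-coding genes, with the counts above each bar. The receptor families sit between 8.70% and 20.5% on the left, against 88.5% for other genes.

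The peaks that do occur were close in strength to peaks elsewhere. The median receptor-cluster peak was 1136.5 bp wide with 2.73 CPM, against 1505 bp and 3.99 CPM over all merged peaks, and per kb the medians were 2.79 and 2.71 CPM. The authors' merged list counted the groups in which at least 3 of 5 libraries had a called peak. By that count, 108 receptor-cluster peaks (38.3%) were found in all 10 groups and 39 (13.8%) in 1 group, against 37.9% and 16.3% of all peaks. The median receptor-cluster peak was called in 38 of the 50 libraries, and 61 were called in all 50. Together the 282 peaks took 0.155% to 0.189% of the counts of a library. This share averaged 0.173% ± 0.0103 in RF1 at TP1 (SD, n = 5), against group means of 0.157% to 0.163% in RF2 to RF5 at TP1. At TP2 it averaged 0.177% ± 0.00338 in RF3 (n = 3), the highest mean, and 0.158% ± 0.00129 in RF4 (n = 3), the lowest.

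Much of the signal was at other genes that are neighbours of the receptors. Of the 282 peaks, 52 lay within 2 kb of an end of another protein-coding gene, as did 21753 of all 144465 merged peaks. Another 38 lay within 2 kb of a receptor start and of no such end, and 192 elsewhere. For receptor genes without an annotated start, either gene end stood for the start. The 52 had a median of 10.9 CPM, and 40 of them were found in all 10 groups. The 230 others had a median of 2.44 CPM, and 68 were found in all 10 groups. Neither set was compared with all merged peaks at gene ends or away from them. Only 32 peaks overlapped a receptor gene itself, at a median of 2.32 CPM. Of the 5 highest peaks by CPM, which is not divided by peak width, 4 lay at another gene. These were Zfp219, a zinc-finger factor (50.9 CPM, near Olfr221), Rnase4, a secreted ribonuclease (46.8 CPM, near Olfr750), Il3ra, the interleukin 3 receptor alpha chain (46.3 CPM, near Olfr31), and Clcn4, a chloride-proton exchanger (44.6 CPM, near Vmn2r30). The highest of all, at chr14:51062779-51066073 with 54.8 CPM, was 4238 bp from Olfr750 and 5537 bp from Rnase12.

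Among peaks at a receptor start and over 2 kb from other gene ends, the 5 highest were those of Olfr90 (26.3 CPM, 4548 bp from Gabbr1, a GABA-B receptor subunit), Vmn2r29 (13.3 CPM, 2452 bp from Clcn4), Vmn1r199 (9.82 CPM), Olfr1414 (8.88 CPM) and Olfr225 (5.03 CPM). All 5 were found in all 10 groups. At the threshold of the rule, the 3 peaks just inside lay 19739 to 19988 bp from a receptor gene with 0.934 to 4.15 CPM, and the 3 just outside lay 20073 to 20172 bp away with 5.42 to 14.9 CPM.

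RF separated most of these peaks at TP1. In an edgeR quasi-likelihood F-test over the 5 RFs, with Benjamini-Hochberg adjustment over all peaks, 199 of 282 receptor-cluster peaks passed a false discovery rate (FDR) of 0.01, which is 70.6% against 59.1% of all peaks tested. All 282 were abundant enough to be tested at both TPs. The share was 44 of 52 at other gene ends, 25 of 38 at receptor starts and 130 of 192 elsewhere. By family it was 164 of 229 near class II ORs, 16 of 24 near V1Rs, 12 of 15 near V2Rs and 3 of 9 near class I ORs. Calls depend on abundance, and in each of 4 equal classes of all peaks by CPM the receptor-cluster peaks were called at least as often as all peaks. In the lowest class 69 of 107 were called (64.5%), against 42.05% of all peaks, and in the highest 50 of 56 (89.3%), against 80.4%. Whether the differences from all peaks exceed chance was not tested. Calls at peaks found in 1 group only follow in part from the peak filter.

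**Figure D2:**
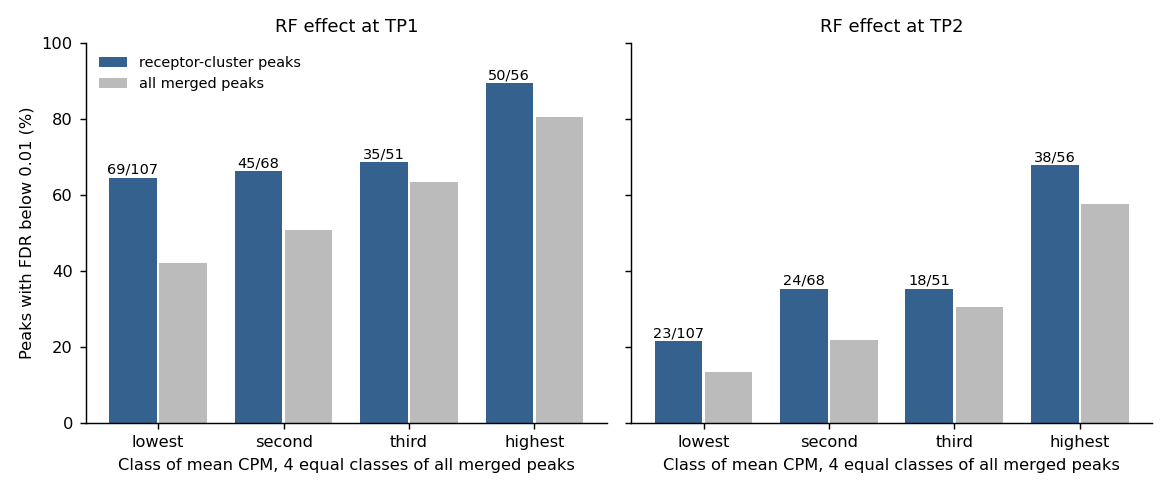
Share of peaks (%) with an RF effect at an FDR below 0.01, at TP1 (left) and TP2 (right), by 4 equal classes of mean CPM over all merged peaks. Blue bars are receptor-cluster peaks, with called and tested numbers above, and grey bars all merged peaks; in the lowest class at TP1 the bars stand at 64.5% and 42.05%.

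The lowest p at TP1 belonged to the Rnase4 peak near Olfr750, at chr14:51088202-51091138. Its CPM in RF1 libraries was 72.5, 64.4, 57.9, 69.5 and 81.2 in replicates 1 to 5. It was 52.0, 52.6, 56.1, 53.8 and 58.6 in RF2, 38.2, 37.7, 39.3, 39.7 and 40.5 in RF3, 34.9, 33.3, 31.7, 35.6 and 31.1 in RF4, and 40.3, 41.5, 42.4, 41.2 and 42.2 in RF5. RF1 and RF2 overlapped only through RF1 replicate 3, and all RF4 libraries were below those of every other RF. The F-test had an adjusted p of 1.08e-22 in edgeR. RF1 was higher than the mean of the other RFs by 0.79 ± 0.04 on the log2 scale (SE, adjusted p 3.60e-21), and RF4 was lower, at -0.69 ± 0.05 (adjusted p 4.31e-16).

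The same order held at a histone gene cluster that shares a span with receptors on chromosome 13. The peak at H2bc13, a histone H2B gene, 10910 bp from Olfr1359, averaged 45.6 ± 6.995 CPM in RF1 (SD, n = 5), against 31.4 ± 2.08 in RF2 (n = 5), 28.5 ± 2.53 in RF5 (n = 4), 22.4 ± 1.07 in RF3 (n = 3) and 21.6 ± 2.27 in RF4 (n = 4). The log2 fold change of RF1 against the other RFs was 0.88 ± 0.05 (edgeR, adjusted p 1.95e-21). The 2 other peaks of that stretch among the 8 lowest p, 5891 and 17451 bp from Olfr1359, were higher in RF1 by 0.78 ± 0.05 and 0.67 ± 0.05. A peak 15816 bp from Olfr1368, in the same cluster, was higher by 0.75 ± 0.06.

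Other receptor loci went the opposite way in RF1. The peak over Olfr225, 682 bp from its start, had 3.14, 2.95, 3.34, 3.17 and 2.67 CPM in RF1 libraries, and between 4.55 and 7.05 CPM in the 20 libraries of the other RFs, without overlap. RF1 was lower by a log2 fold change of -0.84 ± 0.07 (edgeR, adjusted p 3.40e-14). At the start of Olfr1414, whose promoter window is printed above, RF1 averaged 5.91 ± 0.537 CPM (n = 5), against 7.65 ± 0.670 in RF2 (n = 5), 8.54 ± 0.510 in RF5 (n = 4), 9.58 ± 0.992 in RF3 (n = 3) and 10.8 ± 0.234 in RF4 (n = 4). At the start of Vmn2r29, RF1 libraries lay between 9.21 and 11.6 CPM and RF2 libraries between 10.8 and 12.7, with libraries of RF3, RF4 and RF5 between 13.9 and 17.01. No single RF differed there from the mean of the others by a log2 fold change of 0.5, although the F-test passed at an adjusted p of 2.16e-11.

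Of the 4 called peaks with the widest range between RF means of log2 CPM at TP1, 1 was the H2bc13 peak and 3 were weaker. A peak 5184 bp from Olfr464 had 1.64, 1.50, 1.18, 1.37 and 2.00 CPM in RF5 and at most 0.768 CPM in any of the other 20 libraries, a log2 fold change of 1.85 ± 0.16 for RF5 (edgeR, adjusted p 8.00e-14). It was found as a peak in 1 group and named for its wide range. Its fold change and p therefore follow in part from how it was chosen and are no independent support. A peak 19988 bp from Olfr62 also stood high in RF5, at 1.62 to 2.31 CPM against 0.439 to 1.27 CPM in the other RFs (log2 fold change 1.14 ± 0.14). A peak 2003 bp from Vmn2r6 had 4.13, 2.95, 2.98, 3.57 and 5.59 CPM in RF1, 2.39 to 3.18 CPM in RF2 and 1.10 to 1.30 CPM in RF5. RF1 overlapped RF2 but no other RF there, with log2 fold changes of 1.14 ± 0.10 for RF1 and -0.95 ± 0.12 for RF5.

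**Figure D3:**
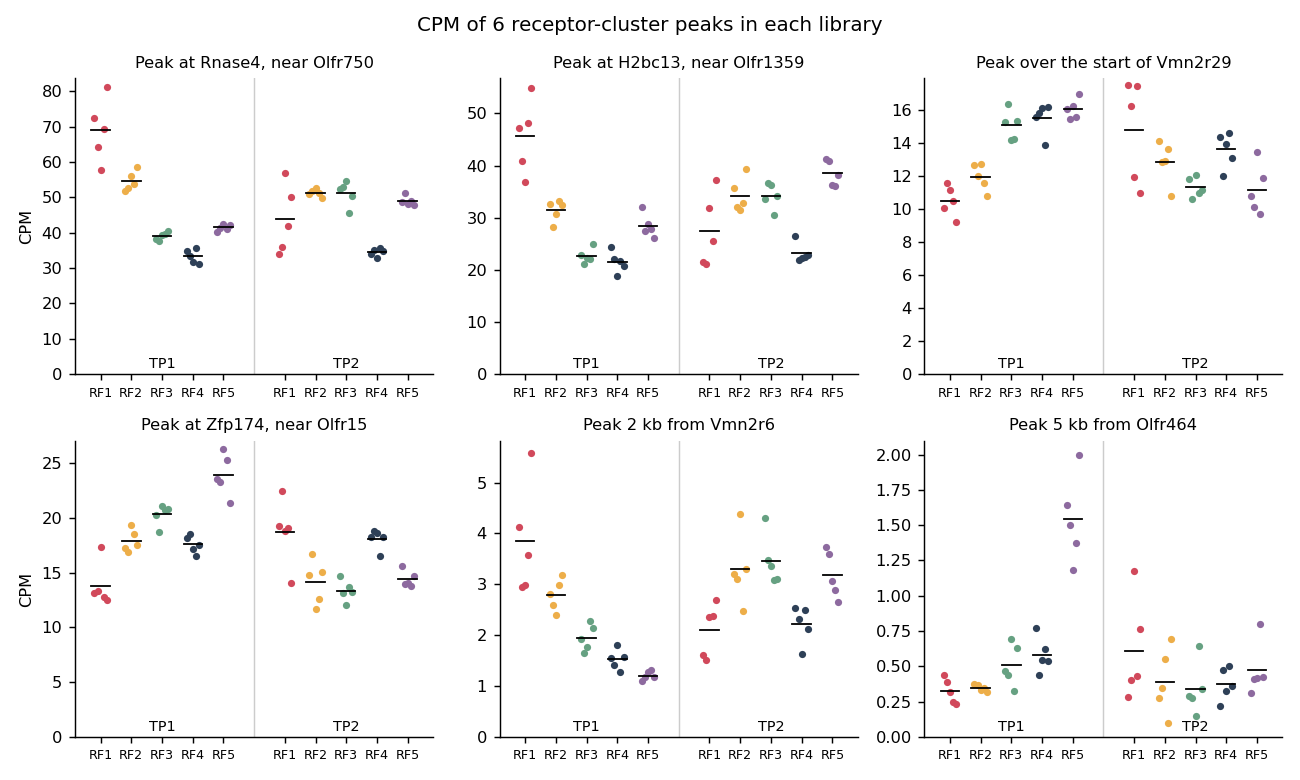
CPM of 6 receptor-cluster peaks in each of the 50 libraries, by RF and TP; points are libraries and lines the means of 5 libraries. At TP1 the Rnase4 peak near Olfr750 lies between 57.9 and 81.2 CPM in RF1 and between 31.1 and 35.6 CPM in RF4.

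Each RF was then compared with the average of its 4 counterparts, and a call needed an FDR below 0.01 and a log2 difference of 0.5 or more in size. RF1 had the most calls at TP1 in the edgeR fit. It had 64 higher receptor-cluster peaks (22.7%, against 9.0% of all peaks) and 27 lower ones (9.57%, against 5.96%), or 91 in all (32.3%, against 15%). RF5 had 18 higher (2.28% of all peaks were) and 22 lower (3.00%), or 40 in all (14.2%, against 5.28%). RF4 had 1 higher (0.598%) and 16 lower (1.88%), or 17 in all (6.03%, against 2.47%). RF3 had 4 higher (1.23%) and 3 lower (0.763%), against 1.99% of all peaks in either direction. RF2 had 1 higher (0.168%) and 1 lower (0.0720%), against 0.240% in either direction. The median log2 fold change of all 282 peaks in RF1 was 0.08, against 0.00 over all merged peaks. Away from other gene ends RF1 had 55 higher and 21 lower of 230 peaks. With each 1 Mb region centred on its own mean and limma as the test, RF1 had 22 calls among the 282 peaks (7.80%, against 2.20% of all peaks in that fit), compared with the 91 in the edgeR fit. RF5 then had 25 calls (8.87%, against 3.15%), compared with 40, so that it was ahead of RF1. RF4 had 9 (3.19%, against 1.76%) and RF3 had 4 (1.42%, against 0.932%). Members in regions too sparse for the limma fit, if any, count as not called.

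Fewer peaks separated the RFs at TP2. The F-test passed for 103 of 282 receptor-cluster peaks (36.5%, against 30.8% of all peaks). It passed for 170 when the 3 libraries that lay nearest to another RF, RF1 replicates 3 and 5 and RF2 replicate 5, were left out (60.3%, against 49.5% of all). Those libraries were named for being unlike their own RF, so a rise in RF calls follows from the choice and is not a measure of the RF effect. By sample title RF2 replicate 5 was T4 and RF1 replicate 5 was T25, while RF5 replicates 1 and 5 were T26 and T27. At TP1, S4 and S25 were RF5 replicates 1 and 5. Over all merged peaks T4 and T25 were both nearest to RF5 replicate 4. Whether labels were exchanged was not tested, and all groups are given as labelled. Over the receptor-cluster peaks alone 5 libraries were nearest to another RF. When libraries within sampling noise were summed and no replicate term was fitted, it passed for 54 (19.1%, against 15%). With the 1 Mb mean taken out, it passed for 12 (4.26%, against 4.22%). With all libraries of 1 replicate number left out, it passed for 62 peaks without replicate 1, 57 without replicate 2, 54 without replicate 4 and 84 without replicate 3. The count was 136 without replicate 5, the number that 2 of the 3 libraries carry. Of the 9 peaks near class I ORs, 0 passed with edgeR, 3 at an unadjusted p below 0.05. At both TPs 82 peaks were called, and 62 at neither, with no share over all peaks to set beside these.

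At TP2 RF3, RF4 and RF1 had the most calls. RF3 had 17 higher receptor-cluster peaks (6.03%, against 2.69% of all peaks) and 0 lower (0.888%), with 3.58% of all peaks called in either direction. RF4 had 0 higher (0.541%) and 14 lower (4.96%, against 1.32%), with 1.86% of all peaks in either direction. In edgeR, 41 peaks were lower in RF3 and 30 higher in RF4 at an unadjusted p below 0.05. RF1 had 5 higher (1.14%) and 8 lower (1.22%), or 13 in all (4.61%, against 2.36%), and 57 in all (16 of them higher) without the 3 libraries named above. Leaving out 1 replicate number gave between 1 call (without replicate 1) and 37 calls (without replicate 5) for RF1. In those fits 0.291% and 8.14% of all peaks were called. RF2 had 1 higher (0.126%) and 0 lower (0.0464%; 5 at an unadjusted p below 0.05), 14 without those libraries, all higher, and RF5 had 1 higher (0.217%) and 1 lower (0.688%), against 0.906% in either direction and 0.172% for RF2. The median log2 fold change of the 282 peaks was 0.12 in RF3 and -0.15 in RF4, against 0.00 over all merged peaks in both. Without the 3 libraries RF3 had 31 calls, 29 of them higher, and RF4 had 11. With the 1 Mb mean taken out, RF3 had 1 call and RF4 had 0 with limma, 59 of its peaks being at an unadjusted p below 0.05.

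RF3 had the highest mean at 3 of the 4 called peaks with the widest range at TP2. A peak 12327 bp from Vmn1r15 had 1.31, 1.40, 1.19, 1.43 and 1.35 CPM in RF3, and 0.118 to 0.960 CPM in the 20 libraries of the other RFs. RF3 was higher by a log2 fold change of 1.12 ± 0.22 and RF4 was lower, at -1.02 ± 0.27 (edgeR, adjusted p 6.01e-05 and 0.00473). Within the gene Vmn2r23, RF3 libraries lay between 1.16 and 2.13 CPM (log2 fold change 0.94 ± 0.22), and overlapped RF4 and RF5, whose highest libraries had 1.18 and 1.32 CPM. The peak 2909 bp from Olfr434 had 2.87 to 5.23 CPM in RF3 and overlapped RF1, whose replicate 3 had 4.50 CPM (23 counts). The peak near Olfr1368, with the lowest p of the 282 at TP2 (adjusted p 1.68e-10), averaged 18.7 ± 0.455 CPM in RF4 (n = 3), against 29.3 ± 0.180 to 31.9 ± 2.55 in RF2, RF3 and RF5. In RF1 it averaged 22.2 ± 5.58 CPM (n = 5), with replicates 3 and 5 at 26.2 and 29.7 and the others between 16.8 and 20.2.

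In the edgeR fit, the RF differences changed between TPs at most receptor-cluster peaks. The interaction of RF and TP passed an FDR of 0.01 for 194 of 282 peaks (68.8%, against 54.4% of all peaks). With the 1 Mb mean taken out, it passed for 56 (19.9%, against 18.3% of all peaks in that fit). It was lowest at the peak of Zfp174, a zinc-finger factor gene 6511 bp from Olfr15 (adjusted p 1.77e-17 in edgeR). That peak averaged 23.5 ± 1.81 CPM in RF5 (n = 4) and 13.8 ± 1.99 in RF1 (n = 5) at TP1, and 14.5 ± 0.776 in RF5 (n = 4) and 18.7 ± 3.03 in RF1 (n = 5) at TP2. At the Rnase4 peak, RF1 averaged 69.1 ± 8.74 CPM at TP1 and 43.8 ± 9.64 at TP2 (n = 5 each), while RF4 averaged 33.6 ± 1.93 (n = 4) and 34.7 ± 0.804 (n = 3). At TP2 RF1 replicate 3 had 56.9 CPM there and replicates 1 and 2 had 33.9 and 36.1.

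Across the 282 peaks, the log2 fold changes of RF1 at TP1 and TP2 had a Pearson r of -0.49, those of RF3 of -0.52, of RF5 of -0.18, of RF2 of 0.17 and of RF4 of 0.37. Over all merged peaks the values were -0.45, -0.60, -0.22, 0.09 and 0.36 in the same order of RFs. Peaks of 1 TP share libraries, so these describe the libraries and are not tests. Of 5 peaks called in RF1 at both TPs, 0 kept their direction. Both peaks called in RF4 at both TPs kept it. No such counts over all merged peaks are set beside these, and r had the same sign over all merged peaks in every RF. The change of direction is thus not particular to receptor-cluster peaks. RF1 at TP2 includes replicates 3 and 5, which were within sampling noise of libraries of other RFs, and no r was taken without them. Replicate 3 had the fewest counts of all libraries, and whether replicate 5 carries the right RF label was not tested.

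**Figure D4:**
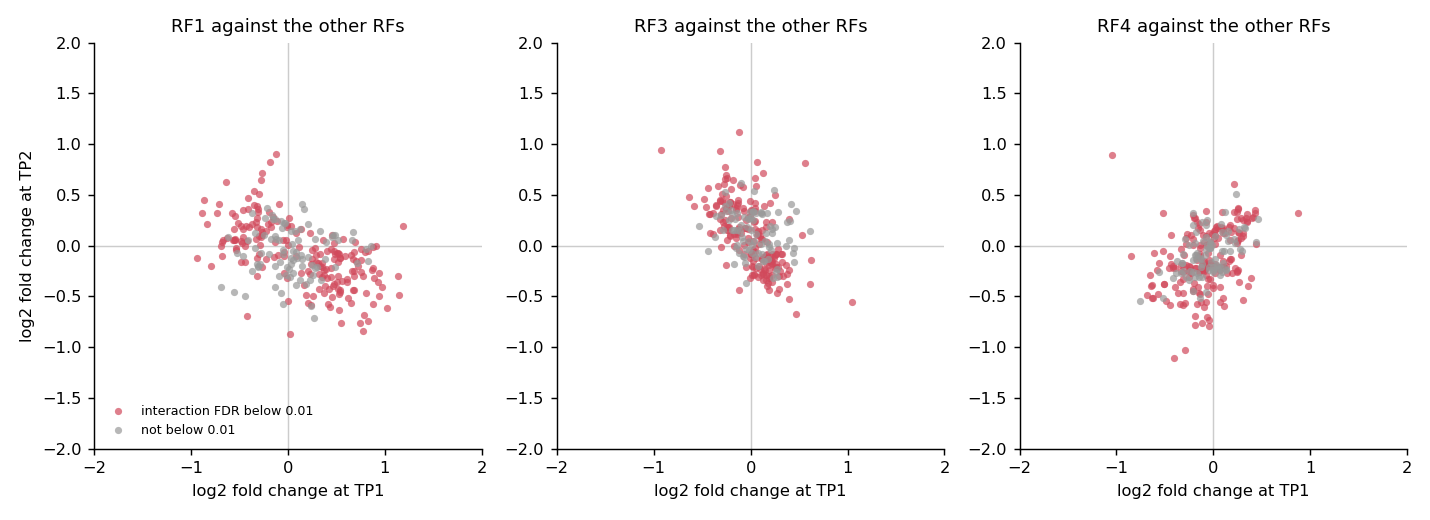
Log2 fold change of RF1, RF3 and RF4, each against the other RFs, at TP1 (x axis) and TP2 (y axis) for each of the 282 receptor-cluster peaks, with the 194 peaks that had an interaction of RF and TP in red. The clouds of RF1 and RF3 slope down (r of -0.49 and -0.52) and that of RF4 slopes up (0.37).

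Clusters were then taken one by one. Receptor genes chained at gaps of up to 1 Mb formed 71 clusters, of which 30 had no merged peak within 20 kb. Of the 28 clusters with 10 or more genes, 4 had none. The 12 clusters with at least 10 peaks held 170 of the 282 peaks. The largest by genes, from Olfr987 to Olfr1274 on chromosome 2 with 222 genes, had 16 peaks, and the cluster from Olfr543 to Olfr692, which holds class I ORs, on chromosome 7 had 10 peaks for 126 genes. The most peaks, 23, were in the cluster of 95 genes from Olfr160 to Olfr986 on chromosome 9.

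For RF1 at TP1, most peaks of a cluster lay on the same side of 0 in many clusters. All 15 peaks of the cluster from Olfr1370 to Vmn1r223 on chromosome 13 and all 12 from Olfr459 to Olfr47 on chromosome 6 were above 0 against the other RFs, with 10 and 6 called higher. In the cluster from Olfr16 to Olfr220 on chromosome 1, 9 of 10 were above 0 and 8 were called higher, at a median log2 fold change of 0.72. In the V1R cluster from Vmn1r4 to Vmn1r31 on chromosome 6, 7 of 11 were called higher. In contrast, all 10 peaks of the cluster from Olfr70 to Olfr155 on chromosome 4 were below 0, as were 16 of 17 from Olfr522 to Olfr541 on chromosome 7 and 14 of 16 from Olfr30 to Olfr225 on chromosome 11, with 2, 3 and 5 called lower. Of the remaining clusters, 15 of 16 peaks were above 0 in the one that starts at Olfr987, 19 of 23 at Olfr160 and 9 of 11 at Olfr722. The cluster from Olfr1396 to Olfr1380 was mixed, with 15 of 19 above 0, values of -0.67 to 0.94, and 2 called higher and 1 lower. In the cluster from Olfr543 to Olfr692, 3 of 10 were above 0. Other RFs split some clusters nearly evenly. In the cluster that starts at Olfr987, 8 of 16 peaks were above 0 for RF2 at TP1 and 9 of 16 for RF3.

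The cluster medians were set beside those of the other peaks around a cluster, up to 1 Mb beyond its ends. For RF1 at TP1 the sign was the same in 10 of 12 clusters (Pearson r of 0.88 over the 12 medians, which share libraries). Cluster medians ran from -0.41 to 0.72 and those of the other peaks around them from -0.42 to 0.50. The exceptions were the clusters from Olfr160 to Olfr986 (0.24 in receptor-cluster peaks and -0.10 in the others) and from Olfr1396 to Olfr1380 (0.13 and -0.06). At TP2 the sign was shared in 10 of 12 clusters for RF3 (r of 0.78) and for RF4 (r of 0.85), with the same 2 clusters as the exceptions. For RF2 it was shared in 7 of 12 clusters at TP1 (r of 0.40) and 6 of 12 at TP2 (r of -0.08), and for RF5 in 8 of 12 at TP1 (r of 0.65) and 10 of 12 at TP2 (r of 0.94). The values were 10 of 12 for RF3 and for RF4 at TP1 (r of 0.87 and 0.76) and 9 of 12 for RF1 at TP2 (r of 0.81).

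**Figure D5:**
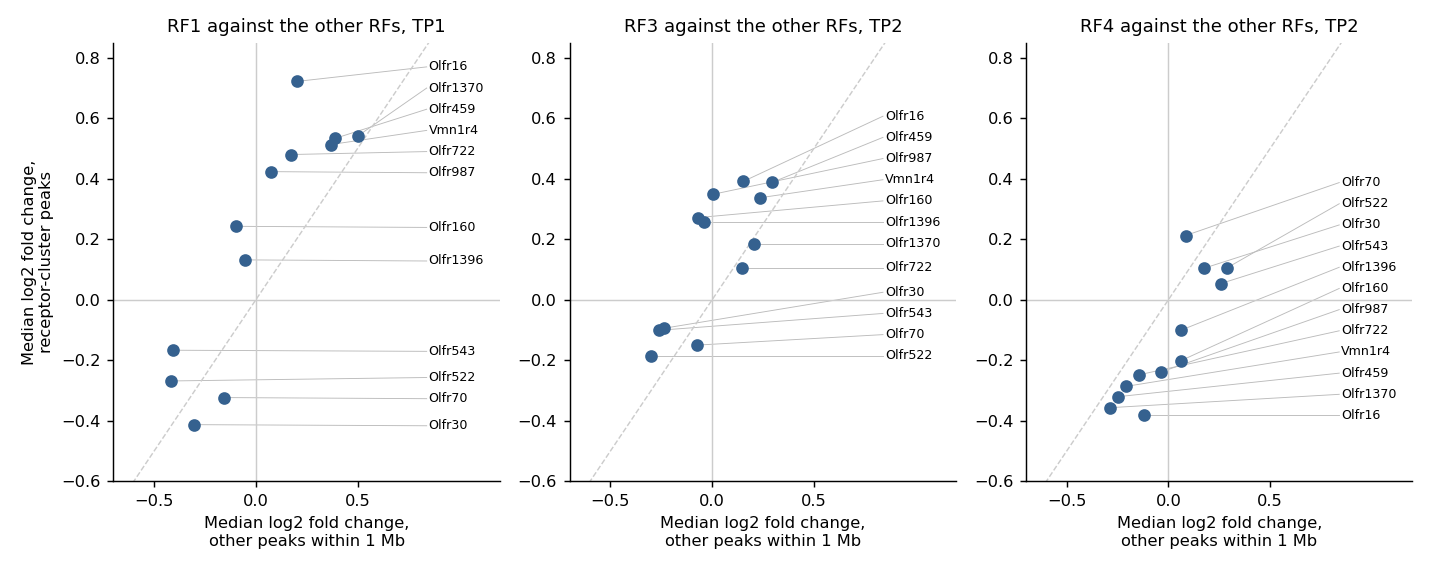
Median log2 fold change of the receptor-cluster peaks of the 12 clusters with at least 10 peaks (y axis) against the median of the other merged peaks within 1 Mb (x axis), for RF1 at TP1 and for RF3 and RF4 at TP2. Clusters carry the name of their first gene and the dashed line marks equal values; RF1 runs from -0.41 to 0.72.

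A list of genes tied to the same sensory system, not all of them particular to it, had peaks at a share near that of other genes. Of 30 genes for odour transduction, receptor trafficking and receptor choice, 25 had a merged peak within 2 kb of an end (83.3%), against 77.7% of protein-coding genes other than receptors. At least 1 such peak had an RF call at 23 of the 25 at TP1 (92.0%, against 91.4% of the other genes with a peak) and at 20 at TP2 (80%, against 71.2%). By CPM per kb of the highest peak at an end, Adcy3, the adenylyl cyclase of the olfactory cascade, had 10.8, Gng13, a G protein gamma subunit, 5.85, and Omp, the olfactory marker protein, 4.47. Ldb1, a co-factor at receptor enhancers, had 25.6 CPM per kb and Lbr, a lamin B receptor that tethers heterochromatin, 16.9. Over the 25 genes the values ran from 2.25 at Cnga2 to 43.0 at Cbx5. Rtp2 and Ano2, at 2.38 and 2.66, were also below the median of 2.71 over all merged peaks. Whether a peak at an end belonged to a neighbouring gene was not tested. No peak was found at Stoml3, Rtp1, Cngb1, Ebf3 or the vomeronasal channel gene Trpc2. The trace amine receptors (Taar) had a peak at 2 of 15 genes and the Fpr-rs receptors at 0 of 4.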

How the data were processed

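ATAC-seq libraries of 50 mice were aligned by the authors with Bowtie2 to Ensembl's GRCm38, duplicates were marked with Picard 1.140, and peaks were called per library with MACS2 2.1.4. Peaks found in at least 3 of 5 libraries of a group were merged over the 10 groups, and the deposited table holds whole-number counts of reads per merged peak, not normalized. A second deposited table, labelled as normalized, held the same values and was not used. Per library, the deposited peak files (score, fold and −log10 columns) were used here only for positions.

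The receptor genes, their ends and the promoter sequences were taken from RefSeq (GRCm38.p6), and peaks within 20 kb were the members. The members, gene lists and motifs were chosen with earlier results of these data known. Class I and II ORs were separated by the family number in RefSeq synonyms (class I up to 42), which put 123 of 124 class I genes on chromosome 7. CPM is the count per 1000000 counts in merged peaks.

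Counts were tested with edgeR 4.0.16 (R 4.3.3; TMM, filterByExpr, robust quasi-likelihood F-test) over all peaks, with RF and replicate number within each TP. The replicate number stood for the sorting batch, since each of the 5 batches of a TP held 1 sample of every RF per the authors' methods, although no label ties the number to a batch. Deviations of same-numbered libraries from their group means had a median r of 0.0507 at TP1 and 0.0127 at TP2 over the members, and 15 and 3 of 50 pairs were above 0.1. Calls needed an FDR below 0.01 and, where 1 RF was set against the average of its counterparts, a log2 fold change of 0.5 or more in size. Libraries of a group were joined where their counts, over peaks with a mean of 500 to 5000, varied by no more than 1.02 times 2 times the binomial variance. Alternatives were other size factors, no filter, DESeq2 1.42.0, no replicate block, a loess offset, joined libraries, each replicate number or the 3 libraries left out, 5 kb members, and members without other gene ends. Another was limma 3.58.1 on log2 CPM (prior count of 2) less the mean of each 1 Mb region. Regions with under 5 peaks were left out of that fit, and any members there count as not called. Its member shares use all members, and the shares beside them use the peaks fitted. Log2 CPM in correlations and ranges took a pseudocount of 0.5.

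Named peaks were the 8 called with the lowest p at each TP, the 4 called with the widest range between RF means at each TP, the 5 with the highest CPM, the 5 highest at a receptor start and the 5 with the lowest interaction p. On simulated counts for 20000 peaks, the TP1 test found 92 of 100 peaks changed by a log2 fold of 0.7 and 100 of 100 changed by 1. The interaction test found 21 of 100 and 85 of 100.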

Additional observations from a re-analysis of the deposited data

Results flagged for a closer look

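Groups with 4 or more separate samples were searched at the named peaks and for the share of counts in receptor-cluster peaks, 168 in all. Of these 7, all at named peaks, held a library far from the rest, where chance gives about 1 in 20. The high ones were RF5 replicate 1 at TP2 over the Olfr1414 start (9.59 CPM, others 8.22 to 8.39), RF1 replicate 3 at TP1 at Zfp174 near Olfr15 (17.3, others 12.5 to 13.3) and RF2 replicate 5 at TP1 at Zfp219 near Olfr221 (56.8, others 48.9 to 50.1). RF5 replicate 1 at TP1 near Olfr523 (17.8, others 16.98 to 17.05) and RF1 replicate 3 at TP2 at Clcn4 near Vmn2r30 (52.6, others 37.4 to 41.7) were also high. Near Vmn1r15, RF1 replicate 3 at TP1 (0.869, others 1.26 to 1.39) and RF5 replicate 1 at TP2 (0.648, others 0.885 to 0.920) were low. RF1 replicate 3 at TP1 and at TP2 are different mice.

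RF differences changed between TPs at 194 receptor-cluster peaks by the interaction test of edgeR. The lowest adjusted p were 1.77e-17 at Zfp174 near Olfr15, 7.88e-16 at Rnase4 near Olfr750, 2.49e-14 at H2bc13 near Olfr1359, 8.65e-14 at the peak 4238 bp from Olfr750 and 8.68e-14 near Vmn2r6. Age, housing and sequencing batch cannot be told apart in this contrast.

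The per-library peak files held 1618 called peaks within 20 kb of a receptor gene that lie in no merged peak, 6 to 161 per library with a median of 26. None of the comparisons used them.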

How the results depend on the processing

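Of 189 counts of called receptor-cluster peaks under alternatives, 132 stayed within 1.5 times the main count and 57 did not. Of 1197 values of named peaks, 1057 kept their direction and side of the threshold, 134 lost the call, 5 gained it and 1 reversed, the log2 fold change of RF1 at TP1 near Olfr1367 (-0.15 with the 1 Mb mean taken out). Of 456 cluster medians, 36 moved.

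With the 1 Mb mean taken out (limma), calls at TP1 were 22 for RF1, 0 for RF2 (68 at an unadjusted p below 0.05), 4 for RF3, 9 for RF4 and 25 for RF5. At TP2 the F-test gave 12, RF1 1, RF2 0 (51 unadjusted), RF3 1, RF4 0 (59) and RF5 0 (35), and the interaction gave 56. Among members within 5 kb, a set of 112, the F-test gave 77 at TP1 and 45 at TP2, with 40, 1, 6 and 14 calls for RF1, RF2, RF4 and RF5 at TP1. At TP2 it gave 0 (22 unadjusted), 7, 3 and 1 for RF2, RF3, RF4 and RF5, and the interaction gave 79. The F-test shares in that set were 68.75% at TP1 and 40.2% at TP2, against 59.1% and 30.8% of all peaks. Away from other gene ends RF4 had 9 calls at TP1. With libraries within noise summed and no replicate block, RF3 had 3 calls at TP1, and at TP2 the F-test gave 54, RF2 0 (39 unadjusted), RF4 6 and RF5 0 (59). Without RF1 replicates 3 and 5 and RF2 replicate 5 at TP2, the F-test gave 170, RF1 57, RF2 14, RF3 31 and RF5 7, after libraries unlike their own RF were taken out. Shares of all peaks in that fit were 49.5% by the F-test, 11.5% for RF1, 1.50% for RF2, 6.28% for RF3 and 2.94% for RF5. DESeq2 gave 0 for RF2 at TP2 (62 unadjusted), against 1. The cause of these moves was not tested, beyond the smaller sets of peaks or libraries.

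With 1 replicate number left out, the F-test gave 164 to 198 at TP1 and 54 to 136 at TP2, and the interaction 153 to 192. Over all peaks the F-test shares ran from 47.3% to 58.3% at TP1 and from 16.1% to 38.9% at TP2. Those of the interaction ran from 40.8% to 53.9%. Calls of receptor-cluster peaks for RF1 to RF5 ran from 72 to 110, 0 to 1, 4 to 8, 15 to 18 and 27 to 38 at TP1. At TP2 they ran from 1 to 37, 0 to 8, 12 to 21, 10 to 15 and 0 to 6. Without the replicate block, the F-test gave 193 at TP1 and 103 at TP2 and the interaction 199, and no count moved by over 1.5 times.

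Depth at TP2 was lower, down to 5111223 counts, and the simulated TP2 test found 82 of 100 peaks changed by a log2 fold of 0.7, against 92 of 100 at TP1. SDs measure the spread between samples of 1 group after joined libraries were averaged, so they can be narrower than the spread between mice. SEs and calls rest on a residual spread estimated over all libraries of a fit, not on the mice of 1 RF.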
